A study of Mus musculus with 6 samples.

Results

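In the whisker pad of the mouse embryo, 80 regions carrying H3K4me1 were centred on protein-coding sequence away from any gene start. The mark is monomethylation of lysine 4 on histone H3. The CUT&Tag assay maps it with an antibody that tethers a transposase to marked nucleosomes, and the DNA cut out there is sequenced. The 3 peak lists were merged wherever peaks overlapped by at least 1 bp, which gave 19251 regions, and 13323 of these lay on chromosomes 1 to 19 with a peak in at least 2 lists. Of those, 10601 were shorter than 15000 bp and did not reach within 1 kb of the start site of a protein-coding gene. The 80 regions are those whose midpoint fell in a coding exon, against 5721 with the midpoint in an intron, 376 in a UTR or noncoding exon and 4424 between protein-coding genes. Among the listed peaks the rule used positions only, but the peaks had been called by their signal.

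The samples were wild-type pads of strain B6/J2 at embryonic day 12, dissected whole and digested to single cells, with 3 H3K4me1 samples and 3 IgG samples numbered by pad. No IgG list was analysed here, so background cannot be set beside the values below. All cell types of the pad entered each library, and more cells carrying the mark cannot be told apart from more mark per cell. The source name of H3K4me1 replicates 2 and 3 reads adult kidney whereas their titles read whisker pad, and the titles were used. A peak overlapped the body or the flanking 5 kb of 35, 34 and 31 of 36 facial mesenchyme regulators in replicates 1, 2 and 3, or 97.2, 94.4 and 86.1%. Of all protein-coding genes 25.8, 23.5 and 20.2% had one, and of 21 adult kidney genes 23.8, 28.6 and 9.52%. The kidney share was close to that of all genes in replicates 1 and 2 and below it in replicate 3. Both lists were drawn up with earlier results of these data known, so these shares are no test of the tissue.

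H3K4me1 marks enhancers, both active and poised, and it lies in broad domains around the factor-bound site rather than on it. Enhancers are usually looked for in introns and between genes. Coding exons can also hold enhancers, in which case the same bases specify amino acids and bind transcription factors. Around a promoter H3K4me1 flanks the start site, which is why regions near start sites were left aside. A domain can also be centred on an exon while its enhancer lies in the intron beside it, so the position of the highest pileup within each region is described below along with the midpoint.

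Windows of 300 bases show what kind of sequence lay under the highest pileup in 5 of the regions. They are from GRCm38 and are printed along the strand of the gene, with coding bases in capitals. The first is from Rbm15, whose exon held the highest pileup in every replicate. It was the single window that the rule for printing selected, lies at the mean position over the replicates and holds the highest pileup of replicates 1 and 2. The other windows are centred on the highest pileup of replicate 1 and were added after their values were seen. Those of Sp1, Spry1 and Kank4 also hold the highest pileup of replicate 2, and that of Dicer1 holds it in all 3 replicates. Sp1, Spry1 and Kank4 show further windows made up wholly of coding bases, and Dicer1 shows a strong region whose highest pileup lay in an intron. They come from chr3:107331205-107331504 (minus strand) for Rbm15, chr15:102409248-102409547 (plus) for Sp1, chr3:37642871-37643170 (plus) for Spry1, chr4:98778424-98778723 (minus) for Kank4 and chr12:104699850-104700149 (minus) for Dicer1.
Rbm15: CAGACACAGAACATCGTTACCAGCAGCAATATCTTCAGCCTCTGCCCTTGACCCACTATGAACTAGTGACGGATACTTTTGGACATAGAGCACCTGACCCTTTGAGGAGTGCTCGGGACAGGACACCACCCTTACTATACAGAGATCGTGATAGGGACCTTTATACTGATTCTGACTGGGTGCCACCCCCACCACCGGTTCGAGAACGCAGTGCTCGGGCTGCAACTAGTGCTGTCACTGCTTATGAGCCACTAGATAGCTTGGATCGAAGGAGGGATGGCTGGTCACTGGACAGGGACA
Sp1: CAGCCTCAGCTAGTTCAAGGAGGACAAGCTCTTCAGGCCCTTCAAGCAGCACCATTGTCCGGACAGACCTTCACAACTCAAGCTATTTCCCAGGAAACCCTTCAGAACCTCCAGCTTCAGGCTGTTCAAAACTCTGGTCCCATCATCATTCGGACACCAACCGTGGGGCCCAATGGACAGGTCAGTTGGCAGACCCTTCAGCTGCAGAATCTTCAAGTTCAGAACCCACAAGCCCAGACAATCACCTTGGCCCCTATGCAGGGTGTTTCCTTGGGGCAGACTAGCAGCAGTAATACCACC
Spry1: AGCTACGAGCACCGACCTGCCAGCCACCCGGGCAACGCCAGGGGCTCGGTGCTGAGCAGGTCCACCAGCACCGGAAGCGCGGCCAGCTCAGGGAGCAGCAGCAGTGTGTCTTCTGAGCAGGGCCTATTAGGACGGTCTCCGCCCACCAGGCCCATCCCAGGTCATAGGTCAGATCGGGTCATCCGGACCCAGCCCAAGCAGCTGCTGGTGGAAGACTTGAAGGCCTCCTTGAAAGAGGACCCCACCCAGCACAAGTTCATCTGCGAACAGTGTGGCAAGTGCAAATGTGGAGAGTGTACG
Kank4: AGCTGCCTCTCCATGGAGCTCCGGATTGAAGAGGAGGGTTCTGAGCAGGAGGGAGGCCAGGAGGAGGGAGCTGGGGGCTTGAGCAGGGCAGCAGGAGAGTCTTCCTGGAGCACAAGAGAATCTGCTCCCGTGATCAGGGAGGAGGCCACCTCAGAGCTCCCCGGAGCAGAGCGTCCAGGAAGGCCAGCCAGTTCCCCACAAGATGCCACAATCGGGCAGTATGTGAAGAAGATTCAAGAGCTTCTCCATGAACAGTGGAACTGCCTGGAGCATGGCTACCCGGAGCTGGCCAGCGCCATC
Dicer1: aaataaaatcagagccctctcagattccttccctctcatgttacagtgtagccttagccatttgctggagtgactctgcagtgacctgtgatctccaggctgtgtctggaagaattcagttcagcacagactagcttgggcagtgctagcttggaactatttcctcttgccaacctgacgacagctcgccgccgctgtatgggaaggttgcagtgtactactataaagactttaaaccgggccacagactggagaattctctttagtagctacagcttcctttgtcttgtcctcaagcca
The windows of Rbm15, Sp1, Spry1 and Kank4 held 300 coding bases each and that of Dicer1 held 0. GC content was 52.7% in the Rbm15 window, 53.3% in Sp1, 62.3% in Spry1, 60.7% in Kank4 and 48.3% in Dicer1.

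Lef1 and Tcf7l1, both HMG-box partners of beta-catenin in the Wnt pathway, each had a short coding exon at the middle of a region. These exons are shown with 30 bases of intron on each side and coding bases in capitals, because the question of whether a mark sits on coding sequence or beside it is plainest for a short exon. They lie at chr3:131189305-131189455 (plus) and chr6:72649090-72649233 (minus). Both were chosen after their values were seen.
Lef1 exon: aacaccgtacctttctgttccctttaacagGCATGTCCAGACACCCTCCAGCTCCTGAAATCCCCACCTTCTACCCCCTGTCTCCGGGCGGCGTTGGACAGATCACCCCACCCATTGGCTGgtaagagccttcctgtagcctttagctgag
Tcf7l1 exon: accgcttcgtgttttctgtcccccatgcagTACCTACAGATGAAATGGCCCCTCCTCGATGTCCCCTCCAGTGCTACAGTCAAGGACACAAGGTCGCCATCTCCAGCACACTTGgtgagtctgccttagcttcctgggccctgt
The Lef1 exon had 91 coding bases and the Tcf7l1 exon 84. The Lef1 stretch held the highest pileup of replicate 3 in its flanking intron bases, and the Tcf7l1 stretch held that of no replicate.

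Each peak list gives a total signal, which adds up the pileup of fragments base by base, and a maximum signal, the highest pileup. The lists held 16788, 12969 and 13998 peaks in replicates 1, 2 and 3. Neither signal was scaled to depth, so each is given as deposited and as its percentile, the percent of peaks in the same list with that value or less. The weakest peak kept in replicate 1 had a total signal of 14265, against 24247 in replicate 2 and 19337 in replicate 3. Replicate 3 stood apart from the others by base composition, with a median GC content of 45.7% over its peaks against 48.4% in replicate 1 and 48.7% in replicate 2. The comparisons with intron-centred regions below are therefore also given for regions rebuilt without it.

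Coding-exon regions were few. Their midpoints made up 0.755% of the 10601 regions, with an exact 95% binomial interval of 0.599 to 0.938% that covers counting error only. Coding bases made up 1.25% of sequenced bases outside the start-site windows and 3.06% of the bases of gene bodies there. They were 0.854% of the bases in the regions themselves. Regions had to clear every start site by 1 kb along their whole length, not at the midpoint alone. Coding bases just outside the windows therefore count in the genome shares but could hardly be midpoints, so those shares are an approximate background. Touching coding sequence was more common than being centred on it. A total of 1493 regions, or 14.1%, overlapped at least 1 coding base, and the 80 were 5.36% of them.

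The 80 regions lay in 80 different genes, so no gene had more than 1. They were on 18 of the 19 chromosomes, with 11 on chromosome 11, 10 on chromosome 4, 8 on chromosome 2 and 0 on chromosome 18. Shares of all regions by chromosome are not set beside these counts, so no excess or lack is read from them. On the X chromosome 99 regions passed the same filters and 0 were centred on a coding exon. The share on chromosomes 1 to 19 was 0.755%, so 0 of 99 is not read as a lack. A coding-exon region was held by 0.385% of the 20780 protein-coding genes on chromosomes 1 to 19. Host genes had a median length of 62.5 kb and 15.5 coding exons, against 41.5 kb and 14 for the gene of a median coding base. The latter includes coding bases, as in short genes, that lie too near a start site to be a midpoint. The nearest start site was 2.34 to 558 kb from the region, with a median of 17.5 kb.

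Regions were 1899 to 12889 bp long, with a median of 3848.5 bp, so most were much longer than the exon at their centre. The coding part of that exon had a median length of 151 bp and ranged from 36 to 3252 bp. The coding share of a region's bases was 1.17 to 63.3%, with a median of 11.3%. It was under 5% in 21 regions and over 50% in 6. The 6 were in Nhsl1, Rbm15, Speg, Tmem200c, Tubb5 and Fam110b, genes named here after their values were seen. In 26 regions the midpoint exon was the only coding piece, and up to 9 pieces were overlapped in the others.

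Internal coding exons held 56 of the 80 midpoints (70%, exact 95% interval 58.7 to 79.7%), against 75.3% of coding bases outside the start-site windows. Last coding exons held 17 (21.25%, 12.9 to 31.8%) against 16.4% of coding bases. First coding exons held 4, or 5%, against 4.23%, and genes with an undivided coding sequence held 3, or 3.75%, against 4.06%. Each of these base shares lay within the interval of the regions, as the plot of exon place shows. The base shares include coding bases too near a start site to be the midpoint of a region. Long exons were not more frequent than their bases would give. Exons with 1000 coding bases or more held 12 midpoints, or 15%, and 15.6% of coding bases. Regions lay toward the end of the gene, at a median of 74.1% of its length, and coding bases lay there too, at a median of 69.3%.

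**Figure D1:**
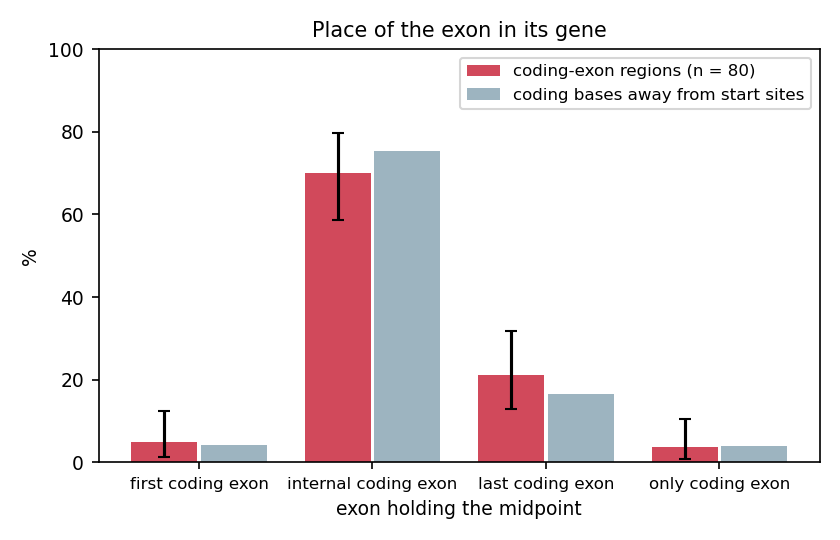
Percent of the 80 coding-exon regions (red, bars with exact 95% binomial intervals) and of coding bases outside start-site windows (grey) by the place of the coding exon in its gene. Internal exons held 70% of midpoints and 75.3% of coding bases, and last exons 21.25% and 16.4%.

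The first comparison was of how often the replicates shared these regions. Replicates 1 and 2 each had a peak in 78 of the 80 regions and replicate 3 in 47. A peak in all 3 replicates was present in 43 regions, or 53.75% (exact 95% interval 42.2 to 65.0%), whereas over all 13323 regions in at least 2 lists the share was 66.4%. It was 66.9% in intron-centred regions and 67.2% in the 1413 regions that touched coding sequence but were centred outside it. The gap lay in replicate 3. Regions with peaks in replicates 1 and 2 only were 41.25% of the coding-exon regions, or 33, against 17.5% of intron-centred ones and 22.1% of those that touched coding sequence. The remaining 4 lacked replicate 2 (Dock9 and Myof) or replicate 1 (Dync2h1 and Col15a1), and these genes are named because they are so few.

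GC content moved with the missing peaks. Coding-exon regions had a median GC content of 50.5%, against 46.8% for intron-centred regions and 48.5% for regions that touched coding sequence without being centred on it. The 43 regions in all 3 replicates had a median of 47.6% and ranged from 38.9 to 56.6%. The 33 found in replicates 1 and 2 only had a median of 55.5% and ranged from 47.4 to 62.8%. The peaks themselves had a median GC content of 51.0, 51.2 and 47.8% in replicates 1, 2 and 3 for coding-exon regions and 47.4, 47.7 and 45.9% for intron-centred regions. The difference was 3.02 ± 0.992 percentage points (SD, n = 3) and was positive in 3 of 3 replicates (exact two-sided sign-flip permutation test, p = 0.25). That is the smallest p that 3 replicates allow, so no comparison over replicates here can reach 0.05. With the regions rebuilt from the other lists, the difference was 3.61 points without replicate 3, but 1.10 without replicate 1 and 1.5 without replicate 2. Rebuilt regions needed a peak in both remaining lists, so the regions changed as well as the replicates. Those without replicates 3, 1 and 2 overlapped 66, 34 and 28 of the 80. The GC difference was 1.19 points with a peak required in all 3 lists. Centring regions on the mean position of highest pileup gave 1.16 ± 1.87 points (exact sign-flip permutation test, p = 0.5).

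When all regions were ranked by GC content and put in 10 equal groups, 46 of the 80 coding-exon regions, or 57.5%, fell in the 3 highest, against 28.4% of intron-centred regions. In the group of the highest GC content, replicate 3 had a peak in 7 of 28 coding-exon regions and in 43.5% of intron-centred regions. In the group below it the figures were 2 of 11 and 55.6%. In the 5 groups of lowest GC content all 19 coding-exon regions had a peak in replicate 3, as did at least 92.6% of the intron-centred regions in each. Over all groups replicate 3 had a peak in 58.75% of coding-exon regions (exact 95% interval 47.2 to 69.6%) and in 82.5% of intron-centred ones. Weighting intron-centred regions to the GC content of the coding-exon regions brought the latter to 67.3%, still above 58.75%. It lay inside that interval, which covers counting error only and takes no account of the libraries that all regions share. The part of GC content in the missing peaks was not tested.

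Where both replicates had a peak, the share of the list's total signal followed GC content in the same way. Over 45 coding-exon regions the log2 ratio of the share in replicate 3 to that in replicate 2 ranged from -1.71 to 1.45, with a median of -0.05, against 0.14 in intron-centred regions. This difference of -0.20 turned to 0.0117 when regions were centred on the mean position of highest pileup. Taken within groups of GC content it was 0.15, the median over the groups with at least 3 such coding-exon regions. Those groups held 3 to 7 each, and the difference was negative in some of them. Spearman's correlation between GC content and this ratio was -0.836 over the 45 regions and -0.811 over 3965 intron-centred regions. It is given as a description, since all regions share the same libraries. At the ends of the range were Rtn4r, the receptor for the myelin inhibitor Nogo, with a GC content of 56.6% and a log2 ratio of -1.71, and Mrrf, the recycling factor of the mitochondrial ribosome, with 42.2% and 1.45. These were named after their values were seen. A share at least 2-fold lower in replicate 3 was found in 2 of the 45, or 4.44%, against 6.24% of all 9150 regions with both peaks, and a share at least 2-fold higher was found in 3, or 6.67%, against 7.26% of those regions.

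**Figure D2:**
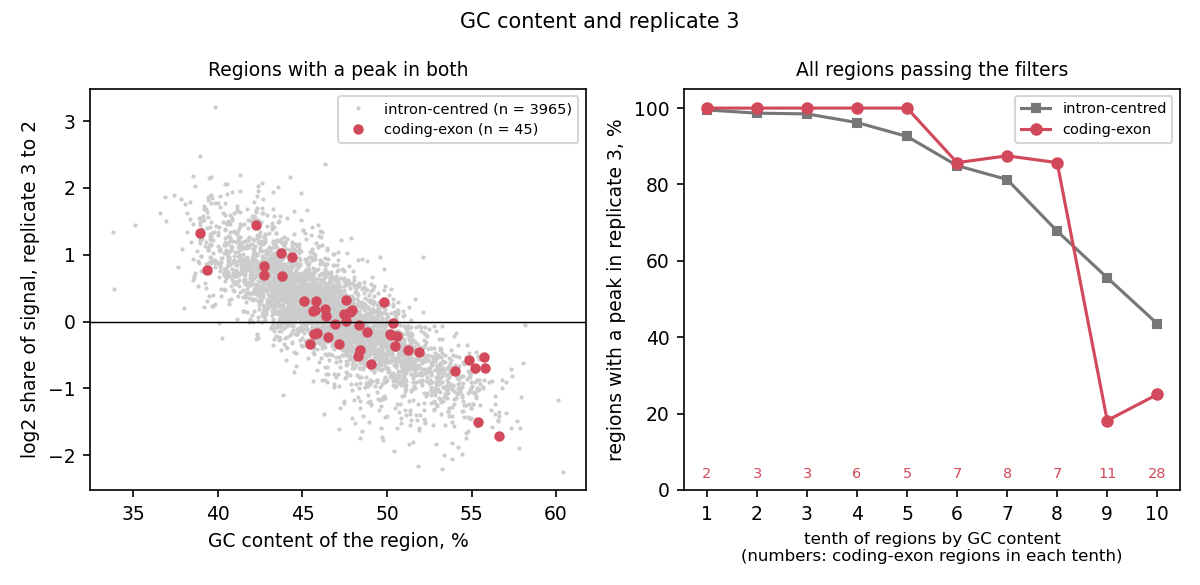
Left, log2 ratio of the share of a list's total signal in replicate 3 to that in replicate 2 against the GC content of the region, for 45 coding-exon (red) and 3965 intron-centred regions (grey), with Spearman's correlations of -0.836 and -0.811. Right, percent of regions with a peak in replicate 3 in each of 10 equal groups by GC content, with the number of coding-exon regions in each along the bottom, where the highest group had 7 of 28 coding-exon regions.

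The second comparison was of the strength of the signal. Coding-exon regions had total signals from 14394 to 228262 in replicate 1. The range was 24359 to 267777 in replicate 2, and in replicate 3 it was 19460 to 235490. Their median total signal was 28447.5, 37989.5 and 42890 in replicates 1, 2 and 3, and that of intron-centred regions was 33190.5, 45707 and 41314. As percentiles the medians were 51.5, 39.6 and 61.1 for coding-exon regions and 57.9, 50.3 and 58.2 for intron-centred regions. The coding-exon regions were lower in replicates 1 and 2 and higher in replicate 3. The mean difference of -4.73 ± 6.95 percentile points (SD, n = 3) was smaller than its spread (exact two-sided sign-flip permutation test, p = 0.5). With the regions rebuilt it was -14.5 ± 0.0645 without replicate 3, -7.60 ± 3.89 without replicate 1 and 3.65 ± 2.53 without replicate 2, with n = 2 in each. These rebuilt sets differ in their regions as well as in their replicates, as given above.

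**Figure D3:**
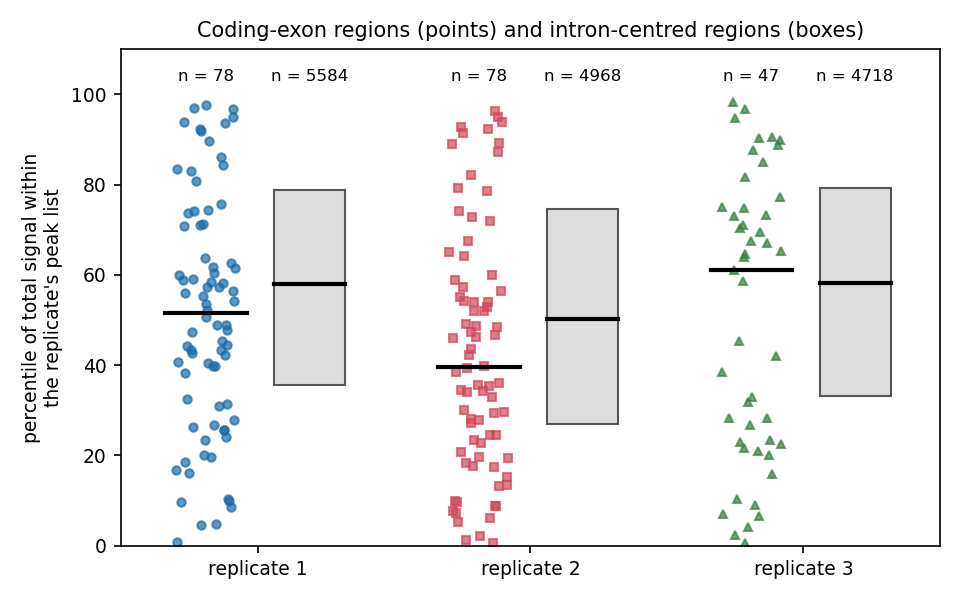
Percentile of total signal within each replicate's list for coding-exon regions (points, with the median as a bar) and intron-centred regions (boxes from the lower to the upper quartile, with the median as a bar). The coding-exon median was below the intron-centred one in replicates 1 and 2 (51.5 against 57.9 and 39.6 against 50.3) and above it in replicate 3 (61.1 against 58.2).

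Regions present in all 3 replicates were compared separately, because replicate 3 kept few regions of high GC content. Over the 43 coding-exon regions the median percentiles were 61.7, 53.9 and 64.6 in replicates 1, 2 and 3, and over 3828 intron-centred regions they were 69.9, 59.9 and 64.6. Here too the coding-exon median was lower in replicates 1 and 2, and in replicate 3 the medians were level. The maximum signal had median percentiles of 47.9, 36.8 and 57.2 in coding-exon regions against 57.3, 51.8 and 57.2 in intron-centred ones, a mean difference of -8.14 ± 7.58 (exact sign-flip permutation test, p = 0.5). The latter was -15.0 without replicate 3 and -17.1 without replicate 1, but 2.04 without replicate 2 and 8.13 when only the stronger 50% of each list was kept. Signal per base, the total divided by the length, differed by -2.92 ± 7.30 percentile points (exact sign-flip permutation test, p = 0.5). This difference was -7.55 without replicate 3, 0.549 without replicate 2 and 6.42 with the stronger 50%. Compared within the groups of GC content that held at least 3 coding-exon regions, it was 1.20.

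Peaks in coding-exon regions had the lower median length in each replicate, at 3021, 3265.5 and 3378 bp in replicates 1, 2 and 3 against 3292, 3697.5 and 3628 bp in intron-centred regions. The difference of -318 ± 99.6 bp (SD, n = 3) was negative in 3 of 3 replicates (exact sign-flip permutation test, p = 0.25, the smallest possible). It was -512 bp when the regions were rebuilt without replicate 3 and -585 bp without replicate 1. Without replicate 2, where the rebuilt regions overlapped 28 of the 80, it was 455 bp.

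The strongest regions were described gene by gene. The highest mean percentile of total signal was that of Itpr1, the receptor channel through which inositol trisphosphate releases calcium from the endoplasmic reticulum. Its total signal was 228262, 252998 and 235490 in replicates 1, 2 and 3, at percentiles 97.7, 94.9 and 98.3, with replicate 2 divided into 2 peaks of which the stronger gives the percentile. The region covered 12066 bp at chr6:108230962-108243027 around the first of 60 coding exons, 92 bp long, at 23.8 kb from the nearest start site. Coding bases made up 1.35% of it. Itpr1 had 7 regions in all, 5 of them centred on introns, and the coding-exon region ranked first among them.

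Dicer1 encodes the ribonuclease that cuts microRNA precursors, and its region was the longest of the 80, at 12889 bp (chr12:104689860-104702748). Its total signal was 189558, 201498 and 172725, at percentiles 96.7, 93.9 and 96.7, so the replicates were close. It reached over 7 coding pieces around coding exon 22 of 26, which made up 15.9% of its bases. In all 3 replicates the highest pileup lay upstream of that exon, by 3291, 3221 and 3306 bp, in the intron sequence printed above. The only coding-centred region beyond the length limit of 15000 bp was that of the T-box factor Tbx3, with 17299 bp at chr5:119674195-119691493 and percentiles of 95.9, 93.8 and 91.8. It was not counted among the 80.

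Rin2, an exchange factor for the endosomal GTPase Rab5, had a total signal of 130741, 173928 and 141354 and percentiles of 93.8, 92.4 and 94.8. Its exon was long, with 1161 coding bases, yet the highest pileup lay 1548, 1560 and 1362 bp upstream of the exon's centre and outside it. Tenm4, a teneurin of the cell surface, reached percentiles of 93.6, 89.2 and 90.3. It had more regions than any other host gene, 27, of which 21 were centred on introns, and its coding-exon region ranked the fourth.

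Grik3, a kainate receptor subunit, stood at percentiles 95.02, 91.5 and 90.6, and its highest pileup lay 2231 and 2321 bp downstream of the exon centre in replicates 1 and 2 but 2679 bp upstream in replicate 3. Tanc1, a scaffold protein of synapses, stood at 89.8, 87.2 and 87.8, with the highest pileup 1163, 1241 and 1163 bp downstream. Mrps27, a protein of the small mitochondrial ribosomal subunit, stood at 91.9, 92.8 and 90.0, with the highest pileup 2230, 1949 and 2020 bp downstream. In these genes the fragments were densest outside the midpoint exon. For Tanc1 the highest pileup nevertheless lay in coding sequence in all 3 replicates, in another exon of the region, whereas for Grik3 and Mrps27 it lay outside coding sequence in each.

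Crocc2, named for its likeness to the ciliary rootlet protein rootletin, had the widest range of percentiles among the 10 strongest. Its total signal was 198528 and 267777 in replicates 1 and 2 and 71201 in replicate 3, and its percentiles were 97.0, 96.3 and 81.7. The share of signal in replicate 3 was lower than in replicate 2 by a log2 ratio of -1.51, and the region had a GC content of 55.4%. Its peak in replicate 3 was 4292 bp long against 11361 and 11055 bp in the other replicates. Chd3, a remodelling subunit of the NuRD complex, had the lowest rank of the 10 strongest, with percentiles of 83.5, 79.3 and 70.5 and a total signal of 68355, 92404 and 51792. It had no other region, and its highest pileup lay 435, 435 and 793 bp upstream of the centre of a 113 bp exon.

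**Figure D4:**
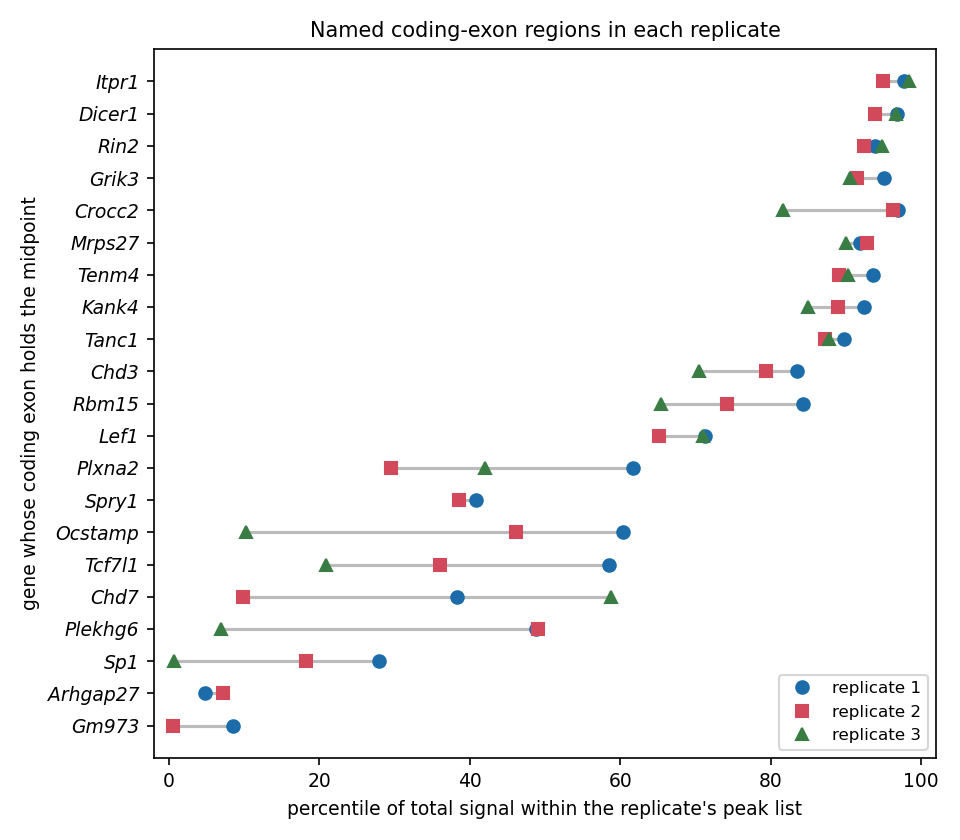
Percentile of total signal within each replicate's list for the named coding-exon regions, one row for each gene, with a circle, square and triangle for replicates 1, 2 and 3 and a grey line over their range. Itpr1, Dicer1 and Rin2 lay above 92 in every replicate, whereas Crocc2 was at 81.7 in replicate 3 and Spry1, Arhgap27 and Gm973 had no peak there.

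The third comparison was of where in the region the signal was highest. Within the midpoint exon lay the highest pileup of 17 of 78 regions in replicate 1, 14 of 78 in replicate 2 and 4 of 47 in replicate 3. These were 21.8, 17.9 and 8.51% of the regions, while that exon held 11.1, 10.04 and 8.29% of the bases. The distance of the highest pileup from the exon's centre had a median of 602, 609.5 and 764 bp, longer than most of the exons. From the region's midpoint the median distance was 587, 570 and 731 bp, against 596, 614 and 606.5 bp in intron-centred regions. In 56 of the 80 regions the highest pileup lay outside the midpoint exon in every replicate, and among the 43 regions in all 3 replicates this held for 31. Over the same 43 regions the highest pileups of the 3 replicates spanned a median of 361 bp, against 507 bp in intron-centred regions, and 26 of the 43, or 60.5%, were within 500 bp, against 49.7% of intron-centred ones.

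Counting any coding base in place of the midpoint exon, the highest pileup was coding in 26.9, 21.8 and 10.6% of regions in replicates 1, 2 and 3, while coding bases were 17.0, 16.2 and 10.97% of the same peaks. The excess of 5.06 ± 5.15 percentage points (SD, n = 3) was positive in replicates 1 and 2 and slightly negative in replicate 3 (exact sign-flip permutation test, p = 0.5), and it came to 8.20 in regions rebuilt without replicate 3, 2.03 without replicate 2 and -0.207 without replicate 1. The rule places an exon at the middle of each region, where pileup also tends to be high, so this excess is partly built in. Over all regions that passed the filters, where no such rule applies, 0.929, 1.02 and 0.411% of highest pileups were coding, and coding bases were 0.889, 0.916 and 0.574% of the peaks.

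**Figure D5:**
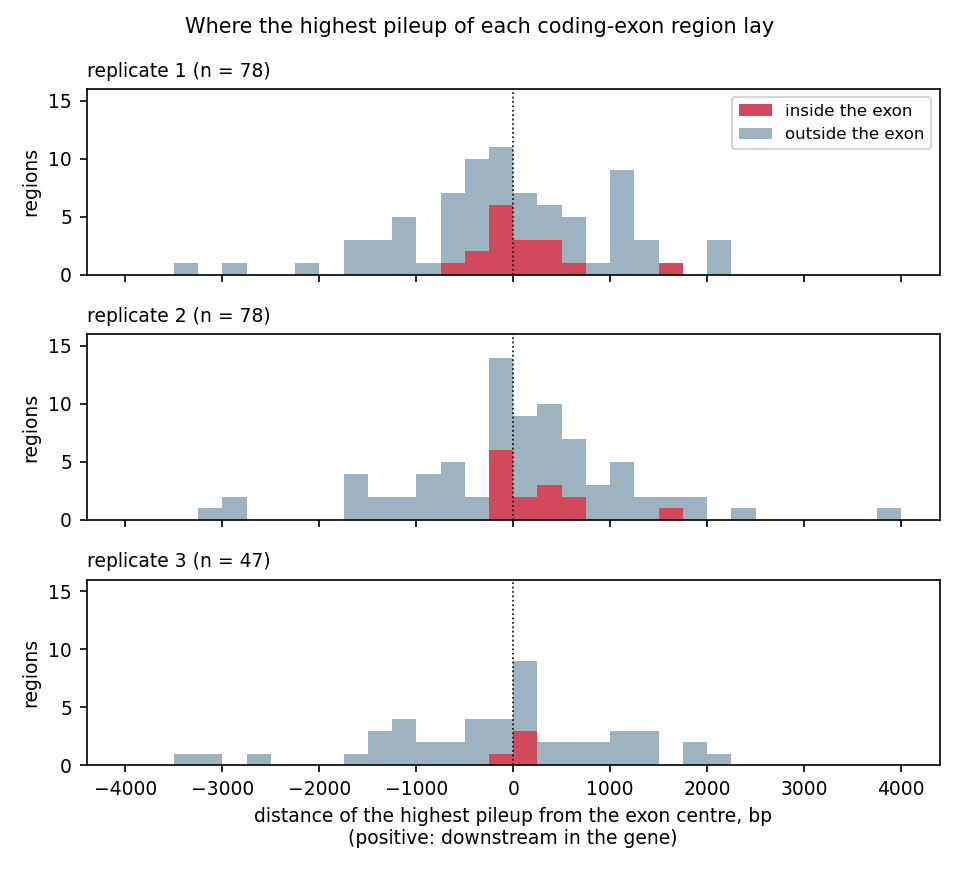
Number of coding-exon regions by the distance of the highest pileup from the centre of the midpoint exon, in bins of equal width and along the direction of the gene, for each replicate, with pileups inside the exon in red and outside it in grey. Inside the exon lay 17 of 78 in replicate 1, 14 of 78 in replicate 2 and 4 of 47 in replicate 3.

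In 6 regions the highest pileup lay in the midpoint exon in every replicate with a peak. These exons were long, with a median of 1512 coding bases against 140.5 in the 56 regions where it never did. A longer exon covers more of its region, so this contrast is partly built in. The 6 regions were in Rbm15, Spry1, Tubb5, Speg, Nhsl1 and Abca7, and the last 5 had peaks in replicates 1 and 2 only. All 6 are named for this count.

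Speg, a kinase of striated muscle, had a total signal of 35006 and 46426 in replicates 1 and 2, at percentiles 61.5 and 52.0, on coding exon 30 of 41. Its region (chr1:75420458-75424387) had a GC content of 59.9% and no peak in replicate 3. Tubb5, a beta-tubulin, had 25491 and 41967, at percentiles 45.4 and 46.1, and the highest pileup lay 124 and 48 bp upstream of the centre of its last coding exon. Tubulin genes have close copies in the genome, and how reads that fit several copies were placed is not given in the sources used here. Nhsl1, related to the Nance-Horan syndrome gene, had the longest exon and the largest coding share of all 80, with 27000 and 32164 at percentiles 48.8 and 27.1. Its highest pileup lay near the end of the exon, 1564 and 1567 bp downstream of the centre. Abca7, a lipid transporter, was the exception to the long exons, with 202 coding bases, a total signal of 18578 and 29846 and the highest pileup 57 and 85 bp upstream of the centre.

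Rbm15 encodes an RNA-binding subunit of the complex that writes N6-methyladenosine. Its region of 4107 bp at chr3:107328543-107332649 lay 3.08 kb from the nearest start site on the first of 2 coding exons, which had 2866 coding bases, and 59.3% of the region was coding. The total signal was 70836, 77974 and 46589, at percentiles 84.3, 74.3 and 65.4, and the maximum signal was 90, 90 and 41. The highest pileup lay 440, 305 and 135 bp downstream of the exon's centre. All of them fell in coding sequence, and the gene had no other region.

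Other regions rich in coding sequence were weaker. Sp1, a zinc-finger factor that binds GC boxes, had 42.4% coding bases, a total signal of 19526, 29035 and 19460 and percentiles of 27.9, 18.3 and 0.664. Its highest pileup lay in the exon in replicates 1 and 2, 430 and 531 bp from the centre, and outside it in replicate 3. Ocstamp, a membrane protein of osteoclast fusion, had 41.4% coding bases and percentiles of 60.4, 46.2 and 10.3. Plekhg6, a guanine nucleotide exchange factor, had 33.3% and percentiles of 48.8, 49.0 and 6.95. In all of these the percentile was lowest in replicate 3.

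Kank4, which carries ankyrin repeats and belongs to a family that links the cytoskeleton to adhesions, joined a high coding share to a strong signal. Coding bases made up 38.02% of its region (chr4:98776023-98781390), and its total signal was 113273, 137322 and 80371 at percentiles 92.4, 88.9 and 85.0. The exon had 1929 coding bases, and the highest pileup lay in it in replicates 1 and 2, 654 bp downstream of the centre in each. In replicate 3 it lay 1764 bp downstream, beyond the exon's end. The printed window holds the position of replicates 1 and 2 and is coding throughout.

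Genes of the whisker and of its signalling pathways followed. Of 352 genes in 16 lists, 346 were on chromosomes 1 to 19 and 6 of these, or 1.73%, held a coding-exon region, against 0.385% of all protein-coding genes. The lists were drawn up with earlier results of these data known, so nothing particular to them is read from that share. The whisker list gave 1 of 10 (Lef1), the Wnt and beta-catenin list 1 of 34 (Tcf7l1), FGF and PDGF signalling 1 of 19 (Spry1), axon guidance 1 of 35 (Plxna2) and chromatin regulators 2 of 27 (Chd3 and Chd7). None was found among the 36 facial mesenchyme regulators, 18 surface epithelium, 28 matrix, 28 BMP and TGF-beta, 11 hedgehog or 18 Notch genes. None was found either in 27 actin and cell-surface linkers, 21 adult kidney, 12 skeletal muscle, 12 endothelial or 10 erythroid genes.

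Lef1 is required in whisker follicle formation and relays Wnt signals to target genes. Its region of 6537 bp at chr3:131186156-131192692 lay 76.6 kb from the nearest start site, around coding exon 5 of 11. The total signal was 44873, 61304 and 52342, at percentiles 71.2, 65.2 and 71.0, with little spread between replicates in this measure. The maximum signal spread more, at percentiles 74.5, 32.4 and 31.4, and so did signal per base, at 59.1, 50.5 and 13.7. The peak of replicate 3 was 6537 bp long with a maximum of 31, against 4112 bp and 53 in replicate 1. Only 2.68% of its bases were coding. The highest pileup lay 2186 and 1841 bp downstream of the exon's centre in replicates 1 and 2 and 50 bp downstream in replicate 3, which is just past the 91 bp exon. Lef1 had 7 regions, 4 of them centred on introns, and this one ranked the third.

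Tcf7l1, which acts mostly as a repressor of Wnt targets, had a total signal of 32791, 36021 and 23771 and percentiles of 58.5, 36.0 and 20.9. The 84 bp exon was coding exon 4 of 13, and the highest pileup lay 1375, 1506 and 1250 bp upstream of its centre, in the intron. It was the seventh of 9 regions on the gene. For Lef1 the highest pileup of replicate 3 lay at the edge of the exon. Otherwise both Wnt-pathway regions had their exon inside a domain whose fragments were densest in intron sequence.

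Spry1, an antagonist of receptor tyrosine kinase signalling induced by FGF, differed in this. Its whole coding sequence lies in a single exon of 939 coding bases, and the region (chr3:37641392-37644750) had 28.0% coding bases. It had a peak in replicates 1 and 2, with a total signal of 23603 and 37349 at percentiles 40.8 and 38.6, and none in replicate 3. The highest pileup lay in coding sequence in both, 58 and 63 bp upstream of the exon's centre. The nearest start site was 2.99 kb away and the gene had no other region.

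Plxna2, a receptor for semaphorins, had a total signal of 35223, 33073 and 30948 and percentiles of 61.7, 29.5 and 42.0, with the highest pileup 1211, 730 and 733 bp upstream of a 101 bp exon's centre. Chd7, a chromatin remodeller needed in neural crest, had a total signal of 22643, 26620 and 41020 and percentiles of 38.2, 9.87 and 58.7. It was higher in replicate 3 than in replicate 2 by a log2 ratio of 1.03, and its region had a GC content of 43.7%. The highest pileup lay 1107, 1083 and 685 bp downstream of the exon's centre.

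The lowest mean percentiles belonged to Gm973 and Arhgap27, which encodes a GTPase-activating protein. Neither had a peak in replicate 3. Gm973 had a total signal of 15568 and 24359 in replicates 1 and 2, and Arhgap27 of 14942 and 25939. These were near the weakest peak kept in each list, at percentiles of 0.578 to 8.54.

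In 34 of the 80, or 42.5%, the coding-exon region was the only region on the gene, and the median was 2 regions. A region at a start site was present in 26 and an intron-centred region in 35. The coding-exon region had the highest mean percentile of the gene's regions in 42. That count includes the 34 where no other region could rank above it. Shares over genes with other kinds of region are not set beside these counts, so nothing particular to coding-exon regions is read from them.

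Short sequences bound by factors active in skin and face were counted on both strands in the 300 bases around the highest pileup of each replicate. Windows at the mean position over replicates, the first choice, held the highest pileup of at least 1 replicate in 53 of the 80 regions, so windows of each replicate's own were used in their place after the data were seen. The TCF/LEF sequence CTTTGAA was in 2 of 78, 4 of 78 and 4 of 47 coding-exon windows in replicates 1, 2 and 3, or 2.56, 5.13 and 8.51%, against 5.48, 5.37 and 6.97% of intron-centred windows. CTTTGAT, which differs from it in the last letter so that no site can match both, was in 5.13, 2.56 and 4.26%, against 3.89, 3.84 and 4.71%. Neither was on the same side of the intron-centred share in all 3 replicates.

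The E-box CAGCTG was in 24 of 78, 19 of 78 and 7 of 47 coding-exon windows, or 30.8, 24.4 and 14.9%, against 24.2, 24.4 and 20.7% of intron-centred windows. The E-box CACGTG was in 8.97, 6.41 and 8.51%, against 5.28, 5.84 and 4.05%. The AP-1 sequence TGACTCA was in 2.56, 2.56 and 4.26%, against 5.71, 5.78 and 5.72%, and GTGAAAG, which PRDM1 binds, in 2.56, 2.56 and 4.26%, against 4.49, 4.21 and 5.04%. Each of these shares of TGACTCA and GTGAAAG rests on 2 windows. The homeodomain sequence TAATTA was in 2.56, 1.28 and 12.8%, against 4.89, 4.13 and 7.14%. TAATTA and both E-boxes read the same on either strand. A match describes these letters only, and the part of GC content in these shares was not tested.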

How the data were processed

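Peak lists of the 3 H3K4me1 CUT&Tag samples were used. According to the submitters' processing notes the tools were Bowtie2 2.3, SAMtools 0.1.19, bedtools and SEACR 1.3, with the mm10 build. The authors called peaks in each sample separately without IgG, in stringent mode, keeping the top 1% of blocks. Their deposited signal columns hold the total signal and the maximum signal of each peak as whole numbers that were not scaled to depth. The study states a common target depth for its samples. Read numbers are not part of the lists, and the depth behind each value was not measured here. The treatment of duplicate reads was not given in the sources used here. Positions were read on GRCm38 with the GENCODE vM21 basic annotation, which has 39599 protein-coding start sites on chromosomes 1 to 19.

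Peaks overlapping by at least 1 bp were merged into regions, and classes were assigned by the midpoint. The position of highest pileup was taken as the middle of the stretch of maximum signal in a peak. Medians of the classes were compared within each replicate with an exact two-sided sign-flip permutation test over the 3 replicates, whose smallest p is 0.25. Regions are not replicates, so no test was made over them. That the 3 samples come from separate embryos is not stated, and their spread may be technical. Intervals of shares are exact 95% binomial intervals and cover counting error only. The steps were tested on simulated data. Python 3.11.15 was used with numpy 2.4.6, scipy 1.17.1, pysam 0.24.0 and matplotlib 3.10.9.

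Genes were named for the 10 highest mean percentiles and the 5 highest coding shares among regions in all 3 replicates, for membership in a gene list, for 3 or more coding-exon regions (0 genes), for the 3 lowest mean percentiles, of which 1 is not reported here, and for lying nearest to the length limit. Windows without UTR bases were printed by rule where the highest pileup of each of 3 replicates lay in the exon. Any other choice is marked as made after values were seen. The members, the 16 gene lists and the tests were chosen with earlier results of these data known.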

Additional observations from a re-analysis of the deposited data

Results flagged for a closer look

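Regions with a peak in a single list were used in no comparison above. Of these, 31 in replicate 1, 9 in replicate 2 and 13 in replicate 3 were centred on coding exons under the same filters. They made up 1.19% of the 2607 single-list regions of replicate 1, 1.34% of 674 in replicate 2 and 0.531% of 2450 in replicate 3. They drew attention as signal in data that the comparisons left out. With no IgG list analysed here, no control level stands beside them.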

How the results depend on the processing

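No paired analysis was possible between H3K4me1 and IgG, because only the H3K4me1 arm was analysed here, and replicate numbers repeat only between it and IgG. Differences between classes of regions were taken within each H3K4me1 replicate. Of 138 alternative values of 11 results, 10 changed sign, 14 moved (a count or log2 ratio by over 1.5 times, a share beyond its exact 95% interval), and 114 did neither, which for a tested difference means the same sign at any size. The number of coding-exon regions, and likewise of genes with one, was 28 with the stronger 50% of each list, 49 with the strongest 10000 peaks, 43 with a peak required in all 3 lists, and 40 to 84 on leaving out each replicate. The share in all 3 replicates was 67.9% with the stronger 50%. The last-exon share was 11.6 to 22.6% on leaving out each replicate. Against intron-centred regions, the total-signal percentile differed by -14.5 to 3.65 on leaving out each replicate, the maximum by -17.1 to 2.04, the mean pileup by -7.55 to 0.549 and peak length by -585 to 455 bp. With the stronger 50%, the maximum differed by 8.13 and the mean pileup by 6.42. Within groups of GC content with at least 3 coding-exon regions the mean pileup differed by 1.20. The coding excess of highest pileups was -0.207 to 8.20 points on leaving out each replicate. The log2 ratio of replicate 3 to 2 differed from introns by -0.20 in the report's regions. It differed by -0.11 with the stronger 50% and by 0.0117 with regions centred on the mean position of highest pileup. Within groups of GC content with at least 3 coding-exon regions the difference was 0.15, and without replicate 1 it was -0.30. The cause of these shifts was not tested. With 3 replicates no sign-flip p can pass 0.05, and depth was not measured here.
Centring regions on the highest pileup gave 74 coding-exon regions, which overlapped 16 of the 80. Regions rebuilt without replicates 1, 2 and 3 overlapped 34, 28 and 66 of the 80.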
